A study of Mus musculus with 2 samples.

Results

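Cells with S100a6 transcripts and few hepatocyte transcripts were examined in 2 droplet libraries of mouse primary hepatocytes, the secretory and metabolic cells of the liver. S100a6-positive cells were those with at least 3 UMIs of S100a6 (a UMI is a tag that marks 1 captured transcript), among cells with at least 500 genes and at most 25% of their UMIs from mitochondrial genes. They numbered 70 of 2436 cells, of which 51 of 1245 came from the induction library and 19 of 1191 from the expansion library. Within each library they were set against the cells with 0 S100a6 UMIs, which numbered 1158 in induction medium and 1130 in expansion medium. The remaining 36 induction and 42 expansion cells held 1 or 2 S100a6 UMIs.

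All cells came from livers of the C57BL/6 strain and grew inside Matrigel, a gel of basement membrane proteins. Both media held EGF at 25 ng/mL, HGF at 50 ng/mL, the ROCK inhibitor Y27632 at 10 uM, the TGF-beta receptor inhibitor A83-01 at 1 uM, nicotinamide at 100 mM and N-acetylcysteine at 1.25 mM. Induction medium added the glucocorticoid dexamethasone at 3 uM. Expansion medium had no dexamethasone and added the GSK3 inhibitor CHIR99021 at 3 uM and the cytokine TNFa at 100 ng/mL. Each medium had 1 library, and cells of a library are not replicates, so no test was made and no difference has a replicate check. The 95% intervals cover counting error only.

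S100a6 codes for calcyclin, a small calcium-binding protein of the S100 family, whose members bind annexins and other proteins at membranes and the cytoskeleton. Hepatocytes make most plasma proteins, among them albumin, apolipoproteins, fibrinogen and acute phase proteins, and they carry out urea synthesis, drug metabolism and glucose release. Hepatocytes in culture are known to lose part of these transcripts and to gain transcripts of cytoskeletal and bile duct type genes.

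Promoters are shown for S100a6, which defines the cells, for Hmga2, which had the highest ratio in the induction library among genes furthest apart in both libraries, and for Sprr1a, which was the most abundant of those genes in both. Each runs from 250 bases before to 50 bases after the RefSeq start in GRCm38.p6, 5′ to 3′ on the strand of the gene. S100a6 is read from the plus strand at chr3:90612644-90612943, Hmga2 from the minus strand at chr10:120476420-120476719, and Sprr1a from the minus strand at chr3:92485832-92486131. Capitals mark matches to the AP-1 motif TGANTCA on either strand.
S100a6: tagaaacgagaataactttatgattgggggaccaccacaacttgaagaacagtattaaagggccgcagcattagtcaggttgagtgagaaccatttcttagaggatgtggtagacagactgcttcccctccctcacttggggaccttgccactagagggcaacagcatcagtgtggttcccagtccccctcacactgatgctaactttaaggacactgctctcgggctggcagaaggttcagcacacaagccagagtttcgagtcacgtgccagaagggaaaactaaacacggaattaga
Hmga2: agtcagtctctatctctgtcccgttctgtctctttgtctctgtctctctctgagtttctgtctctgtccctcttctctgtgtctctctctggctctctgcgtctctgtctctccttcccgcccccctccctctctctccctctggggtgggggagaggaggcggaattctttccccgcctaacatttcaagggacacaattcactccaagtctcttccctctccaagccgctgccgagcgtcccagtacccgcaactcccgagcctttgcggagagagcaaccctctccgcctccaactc
Sprr1a: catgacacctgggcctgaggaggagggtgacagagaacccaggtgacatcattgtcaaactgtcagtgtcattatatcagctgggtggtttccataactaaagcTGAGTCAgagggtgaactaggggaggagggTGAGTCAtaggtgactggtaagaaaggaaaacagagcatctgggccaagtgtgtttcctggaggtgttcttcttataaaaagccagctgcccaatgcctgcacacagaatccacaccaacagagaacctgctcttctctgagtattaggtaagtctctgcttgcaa

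The Sprr1a window held 2 matches to TGANTCA, and the S100a6 and Hmga2 windows held 0. None of the 3 windows held the TEAD motif GGAATG on either strand. Among all 32851 RefSeq promoters of this length, 7.81% held TGANTCA and 14.7% held GGAATG. Of the 19 genes named below as highest in either library's ranking or in both, with S100a6 included, 15 matched a RefSeq entry, with 20 promoters, of which 2 held TGANTCA and 2 held GGAATG. Of the 25 genes lowest by the same rankings, 16 matched, with 18 promoters, of which 2 held TGANTCA and 0 held GGAATG. A match describes letters only.

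The count tables held 1275 induction and 1208 expansion barcodes, and the filter removed 30 and 17 of them. S100a6-positive cells were deeper than S100a6-zero cells, with a median of 11339 UMIs against 6630 in induction medium and 32949 against 22834 in expansion medium, and a rule of 3 UMIs reaches deeper cells more easily. Between S100a6-positive and S100a6-zero cells restricted to the same range of total UMIs, the log2 ratio of the summed hepatocyte transcripts described below was -1.99 in induction and -3.03 in expansion medium, as large as without the restriction. The libraries shared 4 barcodes, 1 of them that of an S100a6-positive cell. Scrublet marked 2 induction cells as doublets, 1 of them S100a6-positive, and 4 expansion cells, of which 0 were S100a6-positive; these are shares under 0.5%, so doublets were hardly screened. Both libraries mixed cells with Xist, the RNA of the inactive X chromosome in females, and cells with Y-linked transcripts, so each held cells of both sexes, although the labels name no animals. Among S100a6-positive cells of the induction library, 17 held Xist UMIs only, 31 Y-linked UMIs only, 1 both and 2 neither. Among those of the expansion library, 10 held Xist only, 5 Y-linked only and 4 both. Both kinds of UMIs were also present in 259 of the 1130 S100a6-zero expansion cells.

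S100a6-positive cells made up 4.10% of induction cells (Clopper-Pearson 95% interval 3.06% to 5.35%) and 1.60% of expansion cells (0.963% to 2.48%), although expansion cells were deeper. They were chosen by their S100a6 UMIs, so the level of S100a6 is a description. It ran from 3 to 156 UMIs with a median of 14 in induction cells, and from 3 to 72 UMIs with a median of 13 in expansion cells. Summed over the cells, S100a6 stood at 2119 CPM (UMIs of the gene per 1000000 UMIs of those cells) in the induction library and 564 CPM in the expansion library. At the edge of the rule, the 3 induction cells with exactly 3 UMIs had a median of 5.99% of their UMIs from 28 genes of secreted hepatocyte proteins, and the 10 cells with exactly 2 had 2.60%. In the expansion library the 3 cells with exactly 3 UMIs had 1.02% and the 3 cells with exactly 2 had 0.770%. Cells with exactly 1 UMI had 7.19% in induction medium, against an S100a6-zero median of 9.62%, and 7.44% in expansion medium, against 6.78%. The median of the induction cells with exactly 3 UMIs lay above the 10th percentile of S100a6-zero cells, which was 5.604%. The lowest of these cells had 0.239%.

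The label of low hepatocyte transcripts is described here on these 28 genes, which the rule did not use. The cells and the genes were chosen with earlier results of these data known, so this is no independent check. The share of these genes was lower in both libraries. In induction medium their share of a cell's UMIs had a lowest value of 0.223%, a median of 2.68% and a highest value of 10.8% in S100a6-positive cells, against 0.778%, 9.62% and 25.7% in S100a6-zero cells. In expansion medium the values were 0.393%, 0.864% and 4.08% in S100a6-positive cells, against 0.484%, 6.78% and 21.8% in S100a6-zero cells. The ranges overlapped in both libraries, but 50 of 51 induction and 19 of 19 expansion S100a6-positive cells lay below the S100a6-zero median, and 43 and 18 of them lay below its 10th percentile. Conversely, 10 of 1158 S100a6-zero induction cells (0.864%) and 4 of 1130 expansion cells (0.354%) lay below the median of the S100a6-positive cells. Among S100a6-positive cells, more S100a6 went with a lower share, with a Spearman rho of -0.54 over 51 induction cells and -0.42 over 19 expansion cells. Cells of 1 library share its free RNA, and both measures are shares of the same total, so this is a description. Summed over cells, the 28 genes had a log2 ratio of -1.82 in induction medium and -2.65 in expansion medium, S100a6-positive over S100a6-zero cells.

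**Figure D1:**
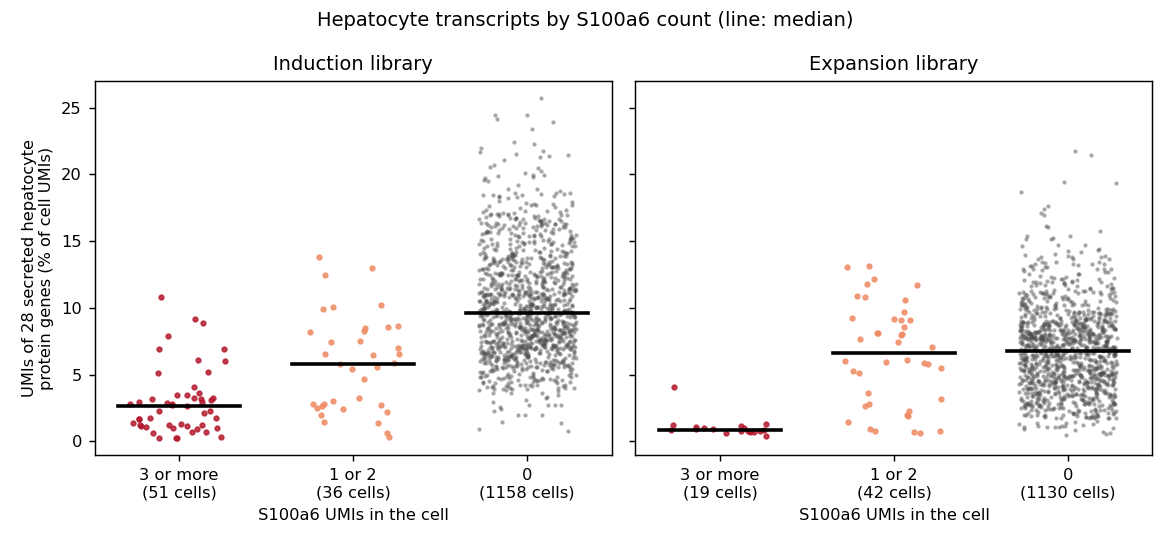
Share of each cell's UMIs from 28 genes of secreted hepatocyte proteins (vertical axis, percent) for cells with 3 or more, 1 or 2, and 0 S100a6 UMIs, with the induction library on the left; points are cells and lines are medians. The medians for 3 or more UMIs are 2.68% and 0.864%, against 9.62% and 6.78% for 0 UMIs, and cells with 1 or 2 UMIs spread over both ranges.

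The difference held within cells of either sex. Among cells with Xist and no Y-linked UMI the summed log2 ratio was -1.64 in induction medium and -2.73 in expansion medium. Among cells with Y-linked UMIs and no Xist it was -1.84 and -2.99. S100a6-positive cells were 4.13% of Xist cells and 6.16% of Y-linked cells in induction medium, and 3.08% of Xist cells and 0.990% of Y-linked cells in expansion medium. The median share of mitochondrial UMIs was 4.70% in S100a6-positive and 6.96% in S100a6-zero induction cells, and 4.81% and 6.36% in expansion cells, and its part in the differences was not tested.

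Genes were compared by their summed UMIs, and a gene counted as measured at 50 CPM or more in either kind of cell, and as higher or lower when the CPM values were at least 2-fold apart. In induction medium 435 of 2813 measured genes were higher in S100a6-positive cells (15.5%) and 473 were lower (16.8%). In expansion medium 294 of 2436 were higher (12.1%) and 320 lower (13.1%). The median log2 ratio of all measured genes was 0.19 in induction and 0.24 in expansion medium. Medians of gene lists are given relative to it where that is stated, and as plain log2 ratios elsewhere. With ratios taken relative to the median gene, 313 genes were higher (11.1%) and 551 lower (19.6%) in induction medium, and 175 higher (7.18%) and 425 lower (17.4%) in expansion medium. With totals that left out mitochondrial and ribosomal protein genes, 856 were higher and 498 lower in induction medium, and 788 higher and 388 lower in expansion medium. The higher genes shared by both libraries numbered 184, which is 42.3% of the induction list and 62.6% of the expansion list, and the shared lower genes numbered 208, 44.0% and 65.0%. Of 2245 genes measured in both, 5 were called in opposite directions. Because the cells were chosen within the same comparison, these counts are the background for what follows and no more. The gene lists below held 12 to 31 genes, of which 1 to 28 were measured, and a gene low in S100a6-zero cells was measured only where S100a6-positive cells were high.

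Among the secreted hepatocyte proteins, 25 of 28 measured genes were lower and 0 higher in induction medium, and 20 of 23 were lower and 0 higher in expansion medium. The list medians relative to the median gene were -3.08 and -3.29. Albumin (Alb) stood at 2392 CPM in S100a6-positive and 21297 CPM in S100a6-zero induction cells, a log2 ratio of -3.15 with a 95% interval of -3.23 to -3.08. In expansion medium Alb stood at 163 CPM in S100a6-positive and 1758 CPM in S100a6-zero cells, with a log2 ratio of -3.43. By cell, the median Alb level was 628 CPM in S100a6-positive and 16530.2 CPM in S100a6-zero induction cells, and 50 of 51 S100a6-positive cells lay below the S100a6-zero median. In expansion cells the medians were 136 CPM and 1062 CPM, and all 19 S100a6-positive cells lay below. After each cell was thinned to 2000 UMIs, Alb was found in 76.5% of S100a6-positive and 99.7% of S100a6-zero induction cells (96.1% and 100% unthinned), and in 36.8% and 78.1% of expansion cells (100% and 99.7% unthinned).

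The secreted proteins were not lower by a common factor. Apolipoprotein A-II (Apoa2) had 55.3 CPM in S100a6-positive and 2641 CPM in S100a6-zero induction cells, a log2 ratio of -5.58. Ambp, the precursor of alpha-1-microglobulin, had 1195 CPM in S100a6-positive and 1915 CPM in S100a6-zero induction cells, a log2 ratio of -0.68. In expansion medium retinol binding protein (Rbp4) was at 1003 CPM in S100a6-positive and 609 CPM in S100a6-zero cells, a log2 ratio of 0.72, while the fibrinogen beta chain (Fgb) was at 129.8 CPM and 1432 CPM, a log2 ratio of -3.46. The share of free RNA among the UMIs of S100a6-positive cells was not tested.

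Acute phase proteins, which the liver releases in inflammation, were lower for 13 of 13 measured genes in induction medium and for 12 of 12 in expansion medium. Orm1, which codes for orosomucoid, had 22.1 CPM in S100a6-positive and 476 CPM in S100a6-zero induction cells, and 14.4 CPM and 386 CPM in expansion cells. Its log2 ratios were -4.43 and -4.74. Serum amyloid A3 (Saa3) had 547 CPM in S100a6-positive and 8795 CPM in S100a6-zero induction cells, and 1929 CPM and 17373 CPM in expansion cells. Complement and coagulation genes were lower for 10 of 10 measured genes in induction medium and 7 of 8 in expansion medium, with complement C3 at log2 ratios of -2.64 and -3.05. Genes of the Orm, Saa, Serpina and Cyp3a families have near-identical copies, so the split of UMIs within a family is uncertain.

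Metabolic genes of the hepatocyte were lower as well. Of xenobiotic metabolism genes 10 of 11 were lower in induction medium and 5 of 5 in expansion medium. Cyp3a11, a drug-metabolizing cytochrome P450, had 50.6 CPM in S100a6-positive and 2215 CPM in S100a6-zero induction cells, a log2 ratio of -5.45, and its UMIs were found in 15 of 51 S100a6-positive cells. Genes that make urea or break down amino acids were lower for 9 of 9 in induction medium. Bhmt, the betaine homocysteine methyltransferase, was lowest of them by ratio, with 9.48 CPM in S100a6-positive and 620 CPM in S100a6-zero cells.

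Glucose and fructose handling genes were lower for 7 of 7 and 4 of 4 measured genes in induction and expansion medium. The expansion median log2 ratio was -2.58, but -0.41 after thinning to 2000 UMIs, where counts under 3 enter at 3. Tkfc, the triokinase of fructose breakdown, had 52.1 CPM in S100a6-positive and 514 CPM in S100a6-zero induction cells, and 8.66 CPM and 70.8 CPM in expansion cells, with log2 ratios of -3.30 and -3.03. The glycolysis gene Aldoa, which codes for an aldolase, was higher, with 299 CPM in S100a6-positive and 86.6 CPM in S100a6-zero induction cells, and 268 CPM and 102 CPM in expansion cells. Pkm, the pyruvate kinase outside the liver, had log2 ratios of 1.32 and 2.30. Of 8 glycolysis genes in all, 2 were higher and 1 lower in induction medium, and 3 were higher and 0 lower in expansion medium. The induction median of that list was 0.13, and -0.06 relative to the median gene.

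Lipid genes followed the hepatocyte genes in part. Fatty acid synthesis genes were lower for 7 of 8 in induction medium and 2 of 5 in expansion medium, with the desaturase Scd1 at log2 ratios of -3.57 and -2.76. Cholesterol synthesis genes were lower for 6 of 13 in induction medium and 10 of 13 in expansion medium, with 0 higher in either. Oxidative phosphorylation genes differed little, with 0 of 18 lower in induction medium, 3 of 17 lower in expansion medium and 0 higher.

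Hepatocyte transcription factors were lower for 6 of 9 measured genes in induction medium and 3 of 5 in expansion medium. The expansion median of -1.12 fell short of 2-fold under 6 alternatives. It was -0.07 after thinning, where counts under 3 UMIs enter at 3 and shrink ratios of genes low in S100a6-positive cells. It was -0.51 without mitochondrial and ribosomal protein genes in the total, -0.52 at 20 CPM and -0.92 at matched depth. In Xist cells it was -0.93 and in Y-linked cells -0.75. Hnf4a, a nuclear receptor that maintains hepatocyte identity, had 90.1 CPM in S100a6-positive and 265 CPM in S100a6-zero induction cells, and 43.3 CPM and 93.9 CPM in expansion cells, with log2 ratios of -1.56 and -1.12. Foxa3, a forkhead factor of the liver, had log2 ratios of -3.15 and -1.74. Foxa2, another forkhead factor, was higher in induction medium, at 50.6 CPM in S100a6-positive and 17.6 CPM in S100a6-zero cells. Onecut2 was within 2-fold in both libraries, with log2 ratios of 0.39 and 0.52.

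With at least 100 CPM in both libraries and ranked by the smaller of the 2 ratios, the 10 genes highest in S100a6-positive cells were Hmga2, Sprr1a, Itga3, Anxa3, Cdh17, Igfbp3, Ctxn1, Tuba1a, Sh3bgrl3 and Limd2. Hmga2 (chr10:120361275-120476469, minus strand) codes for a chromatin protein of embryonic tissues. It had 235 CPM in S100a6-positive and 2.67 CPM in S100a6-zero induction cells, a log2 ratio of 6.46 with an interval of 5.81 to 7.18. In expansion medium it had 312 CPM in S100a6-positive and 8.89 CPM in S100a6-zero cells, a log2 ratio of 5.13 with an interval of 4.86 to 5.40. Hmga2 UMIs were in 36 of 51 and 19 of 19 S100a6-positive cells. In cells thinned to 2000 UMIs the shares were 19.6% of S100a6-positive and 0.262% of S100a6-zero induction cells, and 52.6% and 1.06% of expansion cells (unthinned 70.6%, 1.90%, 100% and 8.14%).

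Sprr1a (chr3:92483952-92485895, minus strand) codes for a small proline-rich protein of squamous epithelium. It had 1266 CPM in S100a6-positive and 16.3 CPM in S100a6-zero induction cells, and 1034 CPM and 39.8 CPM in expansion cells, with log2 ratios of 6.28 and 4.70. It varied widely, from 0 to 10343 CPM with a median of 403 CPM over S100a6-positive induction cells, and from 0 to 3273 CPM with a median of 688 CPM in expansion cells. S100a6-zero cells overlapped this range, since their highest values were 2962 CPM and 4618 CPM.

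Anxa3 (chr5:96793339-96845966, plus strand), an annexin, had 352 CPM in S100a6-positive and 9.72 CPM in S100a6-zero induction cells, and 235 CPM and 5.72 CPM in expansion cells. Its UMIs were in 48 of 51 and 18 of 19 S100a6-positive cells. Itga3, the integrin alpha 3 chain that binds laminin, had 277 CPM in S100a6-positive and 7.17 CPM in S100a6-zero induction cells, and 225 CPM and 15.7 CPM in expansion cells. Axl, a receptor tyrosine kinase, had 98.0 CPM in S100a6-positive and 0.972 CPM in S100a6-zero induction cells, and 157 CPM and 3.39 CPM in expansion cells. Its log2 ratio of 6.66 was above that of Hmga2, but its induction level was under 100 CPM.

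**Figure D2:**
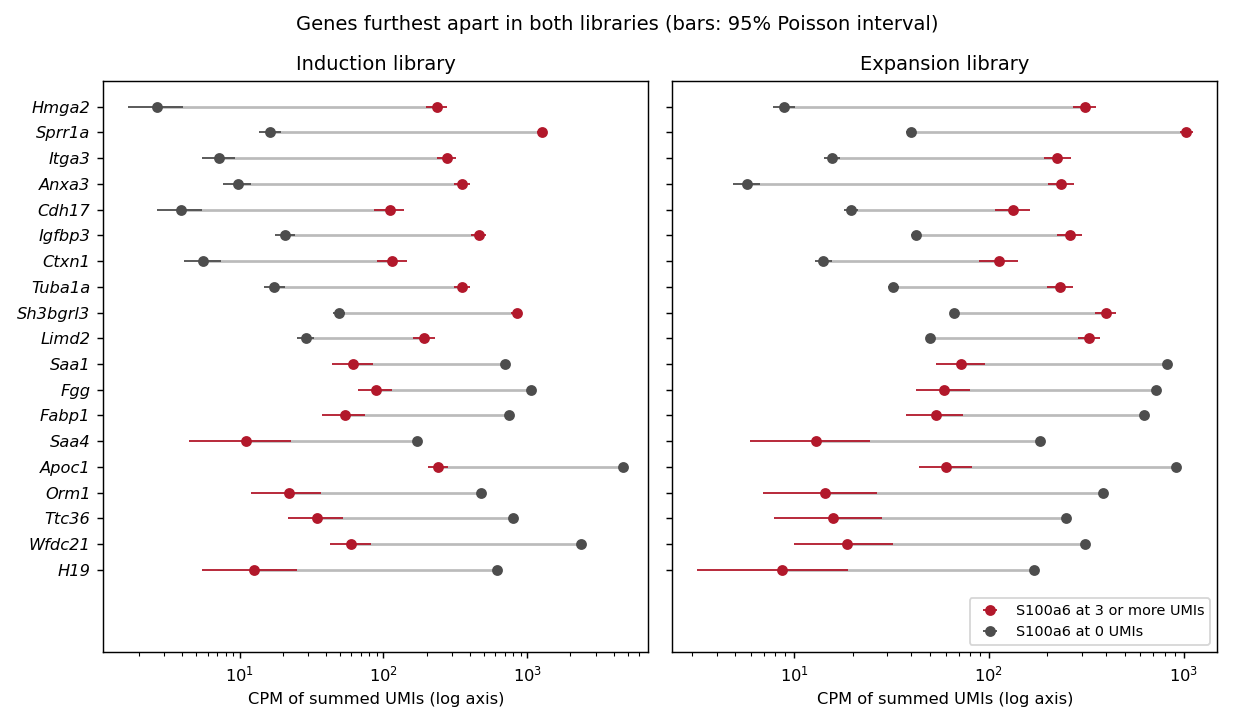
CPM of summed UMIs (log axis) for the 10 genes highest and 9 of the 10 lowest in both libraries, in cells with 3 or more (red) and 0 (grey) S100a6 UMIs, with exact 95% Poisson intervals and the induction library on the left. Hmga2 stands at 235 CPM against 2.67 CPM in induction medium, and H19 lies at the opposite end, at 12.6 CPM against 621 CPM.

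Other genes were higher in both libraries at unequal levels. Akap12, a scaffold protein, had 126 CPM in S100a6-positive and 2.07 CPM in S100a6-zero induction cells, a log2 ratio of 5.94. In expansion medium it had 12.98 CPM in S100a6-positive and 0.546 CPM in S100a6-zero cells, a log2 ratio of 4.57 with an interval of 3.20 to 5.86 that rests on 9 UMIs in 3 S100a6-positive cells. Serpine2, a protease inhibitor, had log2 ratios of 5.23 and 3.02, and Timp1, an inhibitor of matrix proteases, 4.30 and 1.41. Hmga1, the sister gene of Hmga2, was at 39.5 CPM in S100a6-positive and 2.07 CPM in S100a6-zero induction cells, and at 107 CPM and 7.79 CPM in expansion cells.

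Among the genes lowest in both libraries were H19, Wfdc21, Ttc36, Orm1, Apoc1, Saa4, Fabp1, Fgg and Saa1, most of them abundant in liver. H19, an imprinted fetal RNA, had 12.6 CPM in S100a6-positive and 621 CPM in S100a6-zero induction cells, and 8.66 CPM and 170.2 CPM in expansion cells. Its UMIs were in 9.80% of S100a6-positive and 19.8% of S100a6-zero induction cells, so the S100a6-zero level came from a minority of cells with up to 20478 CPM. In thinned cells the shares were 1.96% and 13.5% in induction medium, and 10.5% and 7.88% in expansion medium (unthinned 26.3% and 32.7%). The thinned expansion shares came from 2 of 19 and 89 of 1130 cells and ran against the CPM, so no order is read from them. Igf2, the imprinted growth factor next to H19, had log2 ratios of -1.52 and -2.21.

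Of the genes that were used to mark these cells, Ahnak2, Lgals3, Hmga2, Spp1 and Cdkn2a, all had more CPM in S100a6-positive cells in both libraries, but from unequal counts. Lgals3, the galectin-3 gene, had 18 UMIs in 12 of 51 S100a6-positive induction cells and 0 in 1158 S100a6-zero cells. With the S100a6-zero group set at 3 UMIs, its level was 78.0-fold higher. In expansion cells it had 50 UMIs in 12 S100a6-positive cells and 10 in S100a6-zero cells. Ahnak2, a very large scaffold protein, had 9 UMIs against 3, and 17 against 15. Osteopontin (Spp1) had 4628 CPM in S100a6-positive and 238 CPM in S100a6-zero induction cells, a log2 ratio of 4.28, but 1593 CPM and 1278 CPM in expansion cells, a log2 ratio of 0.32. Spp1 was thus far higher in S100a6-positive cells in induction medium and hardly in expansion medium. In induction medium its UMIs were in 48 of 51 S100a6-positive cells, but also in 303 of 1158 S100a6-zero cells (26.2%).

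The list of S100 proteins and annexins, which also holds the large annexin-binding scaffold Ahnak, had 11 measured genes besides S100a6 in induction medium, of which 7 were higher and 0 lower. In expansion medium 2 of 7 were higher, Anxa3 and Ahnak, and 0 lower. Ahnak had log2 ratios of 2.84 and 2.17. The list medians relative to the median gene were 1.11 and 0.48. S100a11 had 1331 CPM in S100a6-positive and 253 CPM in S100a6-zero induction cells, and 658 CPM and 400.1 CPM in expansion cells, with log2 ratios of 2.39 and 0.72. S100a10, which pairs with annexin A2, had log2 ratios of 2.33 and 0.28, and Anxa2 had 2.86 and 0.74. S100a4 had 1 UMI in S100a6-positive induction cells and 6 in expansion cells, with 0 in S100a6-zero cells. S100a8, S100a9, S100a14 and S100b were at 0 in S100a6-positive cells of both libraries.

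Actin cytoskeleton and adhesion genes were higher for 18 of 24 measured genes in induction medium and 12 of 24 in expansion medium, with 0 lower in either. Lgals3, which was used to mark the cells, was among the 12. Lgals1 (galectin-1) had 1999 CPM in S100a6-positive and 340 CPM in S100a6-zero induction cells, and 2540 CPM and 524 CPM in expansion cells, with log2 ratios of 2.56 and 2.28. The actin crosslinker Actn1 had log2 ratios of 2.80 and 2.06, and thymosin beta 4 (Tmsb4x) had 2.21 in induction medium, and 1825 CPM in S100a6-positive against 644 CPM in S100a6-zero expansion cells. Actb had 3603 CPM in S100a6-positive and 1128 CPM in S100a6-zero induction cells, but 1822 CPM and 1371 CPM in expansion cells, a log2 ratio of 0.41. Cd44, the hyaluronan receptor, had log2 ratios of 1.68 in induction and -0.50 in expansion medium.

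Of 15 listed targets of YAP and TEAD, the transcription factors of the Hippo pathway, 5 were measured in each library. Of these, 4 were higher in induction medium (Ctgf, Axl, Birc5 and Tead1) and 3 in expansion medium (Cyr61, Axl and Tead1), with 0 lower. Birc5 is also the 1 higher gene of the G2 and M phase list below. Relative to the median gene, 3 and 2 were higher. A gene low in S100a6-zero cells entered only where S100a6-positive cells were high, so these counts lean to higher. Ctgf had 53.7 CPM in S100a6-positive and 4.49 CPM in S100a6-zero induction cells, and Cyr61 had 80.8 CPM and 23.9 CPM in expansion cells. Ankrd1, also a target, was below the measured level, with 16 UMIs against 7 and 20 against 5. Of 4 mesenchymal genes measured in each library, 1 was higher in both, vimentin (Vim), at 912 CPM in S100a6-positive and 87.5 CPM in S100a6-zero induction cells and 805 CPM and 256 CPM in expansion cells. Of the others 1 was lower, N-cadherin (Cdh2) in expansion medium, with a log2 ratio of -1.12. Fibronectin (Fn1) was within 2-fold, with log2 ratios of -0.49 and -0.85.

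Keratins and junction genes split. Keratin 18 (Krt18) had 2734 CPM in S100a6-positive and 327 CPM in S100a6-zero induction cells, and 1528 CPM and 440.3 CPM in expansion cells, with log2 ratios of 3.06 and 1.79. Its partner keratin 8 (Krt8) had 2.37 and 0.45. Cdh17, a cadherin, had 4.83 and 2.76. The gap junction genes Gjb1 and Gjb2, which couple hepatocytes, were lower in both libraries, with Gjb2 at 4 UMIs against 1289 in induction medium and 1 UMI against 1632 in expansion medium. Of 9 measured genes in all, 5 were higher and 2 lower in induction medium, and 2 higher and 2 lower in expansion medium.

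Bile duct and progenitor genes were higher for 5 of 6 measured genes in induction medium with 0 lower, and in expansion medium for 1 of 7 with 3 lower. Relative to the median gene, 4 were higher in induction and 0 in expansion medium. The 5 were Sox4, Cd24a, Spp1, Clu and Anxa2. Spp1 was used to mark the cells, and Anxa2 is also in the list of S100 proteins and annexins. By plain ratios the higher gene in both was Sox4, a progenitor transcription factor, with log2 ratios of 1.99 and 1.23. Sox9, the duct transcription factor, was not higher in either library, at 56.9 CPM in S100a6-positive and 75.2 CPM in S100a6-zero induction cells and 43.3 CPM and 105 CPM in expansion cells. The expansion median of the list was 0.19, and -0.05 relative to the median gene. Of 3 measured mucosal genes, 2 were higher in induction medium, Ly6d and Sprr1a, and 1 was lower, Tff3, while in expansion medium Sprr1a was higher and Ly6d and Pigr were lower. The induction median of 1.38 was 0.87 with 5 or more S100a6 UMIs. Tff3 had 90.1 CPM in S100a6-positive and 337 CPM in S100a6-zero induction cells.

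Of 23 genes of G1 and S phase, 5 were measured in each library, all of them cyclin D or G1 kinase genes, and 5 were higher in induction medium and 3 in expansion medium, with 0 lower. The expansion median of 1.44 was 0.87 at a minimum of 20 CPM. Of 24 genes of G2 and M phase, 3 were measured in each library, of which 1 was higher in induction medium, 0 in expansion medium and 0 lower. Among the cyclins, Ccnd2 had 698 CPM in S100a6-positive and 81.0 CPM in S100a6-zero induction cells and 643 CPM and 141 CPM in expansion cells. Of 15 listed inhibitors of the cycle and genes linked with senescence, 4 and 5 were measured in induction and expansion medium, and all were higher. Hmga2 and Cdkn2a among them were used to mark the cells. A gene low in S100a6-zero cells entered only where S100a6-positive cells were high, so these counts lean to higher. Cdkn2a, which codes for p16 and p19Arf, had 313 CPM in S100a6-positive and 32.9 CPM in S100a6-zero induction cells, and 185 CPM and 67.0 CPM in expansion cells, with log2 ratios of 3.25 and 1.46. Its neighbour Cdkn2b had 3.12 and 1.45. Targets of p53 were higher for 9 of 12 measured genes in induction medium and 8 of 11 in expansion medium, with 0 lower; relative to the median gene the expansion count was 3. Ccng1 had log2 ratios of 2.55 and 1.86, Mdm2 2.43 and 1.57, and Cdkn1a 1.21 and 1.17.

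Transcripts of G2 and M phase genes were compared at equal depth. After thinning to 2000 UMIs, at least 2 genes of G2 and M phase were found in 8 of 51 S100a6-positive induction cells (15.7%, interval 7.02% to 28.6%) and in 122 of 1144 S100a6-zero cells (10.7%). In expansion medium they were found in 3 of 19 (15.8%, interval 3.38% to 39.6%) and 206 of 1130 (18.2%). Unthinned shares were 37.3% and 26.2% in induction medium and 94.7% and 77.4% in expansion medium. Thinning left out 14 S100a6-zero induction cells with too few UMIs. The shares move with depth and do not count dividing cells. Differences of this size were within the intervals at this number of cells.

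Stress and cytokine genes differed in direction. Immediate early and AP-1 genes were lower for 6 of 9 measured genes and higher for 1 of 9 in each library. The lower genes were Fos, Jun, Junb, Egr1, Ier2 and Zfp36 in both, with Fos at 36.3 CPM in S100a6-positive and 195 CPM in S100a6-zero induction cells and 9 UMIs against 4239 in expansion cells. The higher gene was Ier3, with log2 ratios of 2.27 and 1.34. Fosl1, an AP-1 member below the measured level, had 8 UMIs in S100a6-positive induction cells against 1, and 27 UMIs in 15 of 19 S100a6-positive expansion cells against 28 in 1130 S100a6-zero cells. Genes of the unfolded protein response were lower for 3 of 7 and 5 of 7, among them Hspa5, the chaperone BiP, with log2 ratios of -1.61 and -1.41.

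Of chemokine and cytokine genes 3 of 8 were higher and 1 lower in induction medium, and 2 of 10 were higher and 3 lower in expansion medium. Ccl2, which attracts monocytes, had 1474 CPM in S100a6-positive and 212 CPM in S100a6-zero induction cells, and 1767 CPM and 697 CPM in expansion cells. Ccl20 was lower in both, with log2 ratios of -1.92 and -2.07. NF-kB targets were higher for 2 of 12 and lower for 2 in induction medium, and higher for 1 of 13 and lower for 6 in expansion medium, which contains TNFa. Sod2, the mitochondrial superoxide dismutase, had log2 ratios of -2.32 and -2.33. Genes of antigen presentation and interferon response were lower for 2 of 6 in induction medium and 1 of 7 in expansion medium, with 0 higher, and their medians relative to the median gene were -0.76 and -1.18. Ifitm3, an antiviral membrane protein, had log2 ratios of -1.67 and -1.60, and B2m, the light chain of class I molecules, -0.04 and 0.02. NRF2 targets were 0 of 5 higher or lower in induction medium, and 3 of 5 higher and 2 lower in expansion medium. Relative to the median gene 1 was higher in expansion medium. The plain list median there of 1.01 was 0.02 without cells with both Xist and Y-linked UMIs. Glucocorticoid receptor targets were lower for 3 of 11 measured genes and higher for 0 in induction medium, and lower for 3 of 7 and higher for 1 in expansion medium. The higher gene was Angptl4, a regulator of lipoprotein lipase, with a log2 ratio of 3.48.

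**Figure D3:**
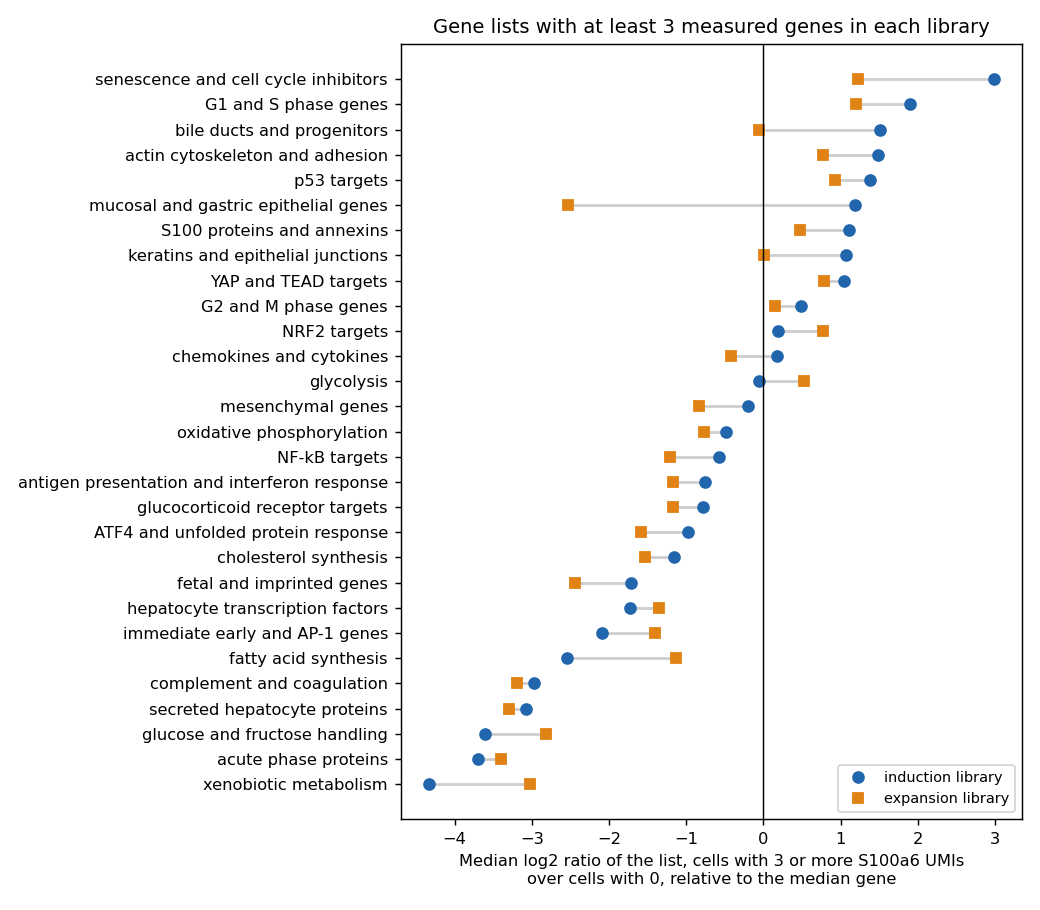
Median log2 ratio of each gene list, S100a6-positive over S100a6-zero cells, relative to the median gene (horizontal axis), for lists with at least 3 measured genes, in the induction (circles) and expansion (squares) libraries. Acute phase and secreted protein lists lie below -3 in both libraries. The list of senescence genes and cell cycle inhibitors lies furthest to the right, at 2.99 and 1.22. It includes Hmga2 and Cdkn2a, which were used to mark the cells.

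Most, but not all, defining genes of other liver cell types were at or near 0 in the S100a6-positive cells. The exceptions were Spp1, Tspan8 and Sox9 of the bile duct list, Rgs5 of the stellate list and Egfl7 of the endothelial list, the last with 19 and 24 UMIs. For stellate cells and fibroblasts 10 of 12 genes, among them Col1a1, Col1a2, Pdgfrb, Dcn and Lrat, were at 0 in both libraries. The other two were Rgs5, with 269 CPM in S100a6-positive and 167 CPM in S100a6-zero induction cells and 290.0 CPM and 403 CPM in expansion cells, and Reln. For endothelial cells 8 of 10 were at 0, for Kupffer cells 9 of 10, and for T and NK cells, B cells and neutrophils all were at 0. The bile duct genes Krt7, Cldn4 and Sctr were at 0 in both libraries, and Krt19 had 1 and 5 UMIs. The summed bile duct list, at 4831 CPM in S100a6-positive and 338 CPM in S100a6-zero induction cells and 1691 CPM and 1415 CPM in expansion cells, was mostly Spp1, with Tspan8 at 111 CPM and 8.50 CPM in induction cells. By cell that list ran from 0 to 270 UMIs with a median of 41 in S100a6-positive and from 0 to 211 with a median of 1 in S100a6-zero induction cells. Of 8 mesothelial genes 5 were at 0, and Msln had 7 and 9 UMIs in S100a6-positive cells. The summed mesothelial list was low but higher in S100a6-positive cells. It had 9 UMIs (14.2 CPM) in S100a6-positive and 4 UMIs (0.486 CPM) in S100a6-zero induction cells. In expansion cells it had 15 UMIs (21.6 CPM) and 106 UMIs (3.86 CPM).

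Clustering of all cells without S100a6 gathered most S100a6-positive cells in 1 cluster of each library. In induction medium 49 of 51 were in 1 of 7 clusters, which held 105 cells, 34 of them S100a6-zero. In expansion medium 18 of 19 were in 1 of 8 clusters, which held 38 cells, 14 of them S100a6-zero. The cluster's median share of secreted hepatocyte protein UMIs was 3.26% in induction medium, where other clusters had 7.48% to 14.7%, and 0.878% in expansion medium, where others had 3.92% to 8.99%. The clusters were built on these transcripts, so the shares describe them. No cell type name was given to them.

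S100a6-zero cells of these clusters carried much of the same set of transcripts, in a comparison chosen after the data were seen. In expansion medium Hmga2 stood at 334 CPM in S100a6-positive cells of the cluster, at 361 CPM in its S100a6-zero cells and at 3.70 CPM in S100a6-zero cells of other clusters. Krt18 there had 1586 CPM, 1517 CPM and 424 CPM in the same 3 kinds of cells, and Alb 126 CPM, 160.2 CPM and 1782 CPM. Cdkn2a and Cdkn1a were higher in the S100a6-zero cells of the cluster, with Cdkn2a at 198 CPM in S100a6-positive and 411 CPM in S100a6-zero cells, and Cdkn1a at 229 CPM and 568 CPM. Lgals3 kept to S100a6-positive cells, with 50 UMIs against 2, and Anxa3 was higher in them, at 245 CPM against 85.1 CPM. In expansion medium, 14 cells without S100a6 thus lay close to the S100a6-positive cells in most of the genes shown.

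The induction cluster was more mixed. Spp1 had 4836 CPM in its S100a6-positive cells, 3850.4 CPM in its S100a6-zero cells and 116 CPM in S100a6-zero cells elsewhere. Hmga2 had 228 CPM, 14.8 CPM and 2.26 CPM, and Timp1 had 409 CPM, 59.2 CPM and 18.7 CPM, so both were lower in S100a6-zero cells of the same cluster. Alb had 1736 CPM, 10027 CPM and 21679.9 CPM, with the S100a6-zero cells of the cluster in between. Their share of secreted hepatocyte protein UMIs, with a median of 6.10%, was above the 2.30% of the S100a6-positive cells of the cluster, whereas in expansion medium the medians were 1.04% and 0.855%.

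**Figure D4:**
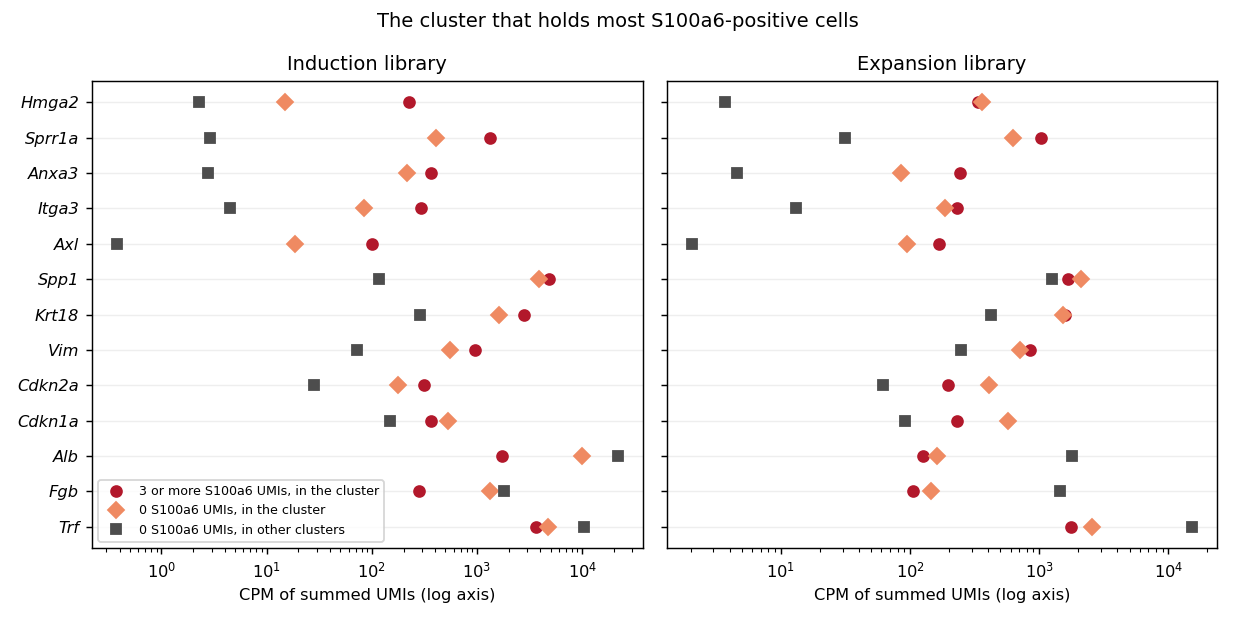
CPM of summed UMIs (log axis) of 13 genes in S100a6-positive cells of the cluster that holds most of them (red circles), in S100a6-zero cells of that cluster (orange diamonds) and in S100a6-zero cells of other clusters (grey squares), with the induction library on the left. In expansion medium the first 2 groups lie together for Hmga2, at 334 CPM and 361 CPM, and in induction medium they lie apart, at 228 CPM and 14.8 CPM.

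Between media, S100a6-positive induction cells were set against S100a6-positive expansion cells over 1904 genes of at least 50 CPM in each kind of cell, with no replicate of either medium. Their median depths were 11339 UMIs in induction and 32949 in expansion medium, so 3 UMIs set a higher S100a6 level in induction cells. Their summed S100a6 was 2119 CPM and 564 CPM. The part of this unlike cut in the differences between media was not tested. Of the 1904 genes, 147 were higher in induction medium (7.72%) and 29 lower (1.52%), against 106 (5.57%) and 91 (4.78%) in S100a6-zero cells. Glucocorticoid receptor targets were higher in induction medium, which contains dexamethasone, for 7 of 10 genes in S100a6-positive and 9 of 10 in S100a6-zero cells. Fkbp5, a target that feeds back on the receptor, had 117 CPM in induction and 21.6 CPM in expansion S100a6-positive cells, and 129 CPM and 16.2 CPM in S100a6-zero cells. Alb followed the medium in both kinds of cells, with log2 ratios of induction over expansion of 3.88 in S100a6-positive and 3.60 in S100a6-zero cells.

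Other lists ran in different directions in the 2 kinds of cells. The median of S100 proteins and annexins, induction over expansion and relative to the median gene, was 1.05 in S100a6-positive and -0.77 in S100a6-zero cells. For bile duct and progenitor genes it was 0.60 and -1.11, and for keratins and junctions 0.77 and -0.45. Spp1 had 4628 CPM in induction and 1593 CPM in expansion S100a6-positive cells, but 238 CPM and 1278 CPM in S100a6-zero cells. S100a10 had 466 CPM and 237 CPM in S100a6-positive cells, but 92.9 CPM and 195 CPM in S100a6-zero cells. Fatty acid synthesis genes differed less between media in S100a6-positive cells, with a median relative to the median gene of 0.20, against 1.55 in S100a6-zero cells. Angptl4 had 77.4 CPM in induction and 57.7 CPM in expansion S100a6-positive cells, and 60.2 CPM and 5.17 CPM in S100a6-zero cells. These differences between kinds of cells were not tested, nor was the part of the unlike S100a6 cut in them.

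**Figure D5:**
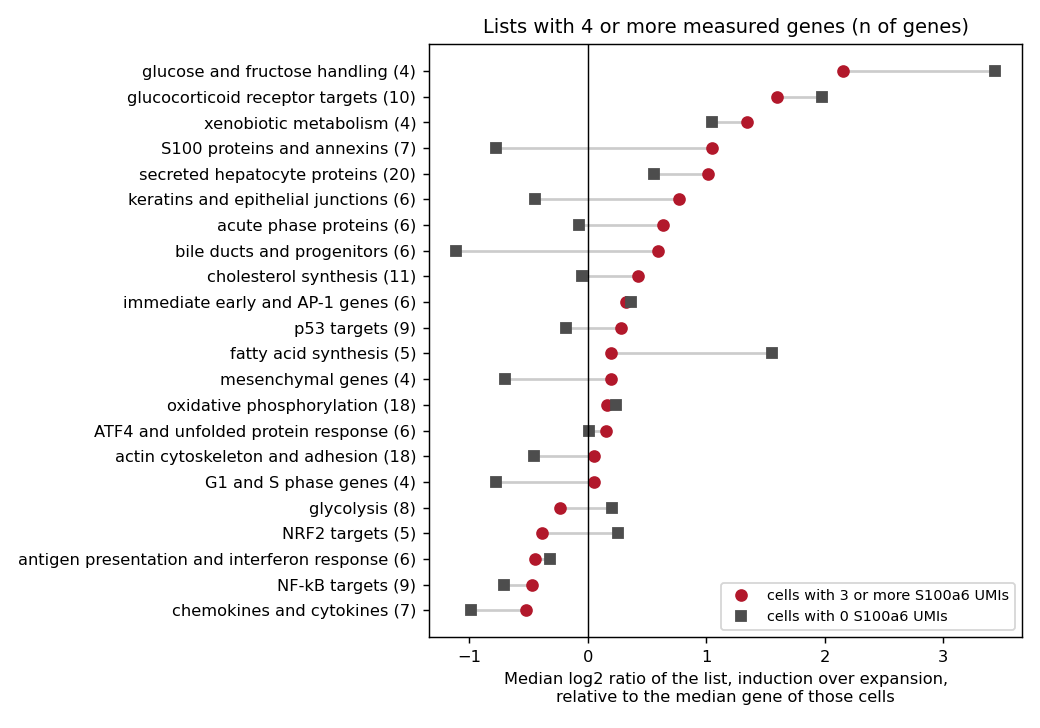
Median log2 ratio of gene lists, induction over expansion, relative to the median gene of the same cells (horizontal axis), in S100a6-positive (circles) and S100a6-zero cells (squares); the number of genes stands beside each list. S100 proteins and annexins lie at 1.05 and -0.77, and glucocorticoid receptor targets lie on the same side at 1.60 and 1.98.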

How the data were processed

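The authors deposited UMI counts per gene and cell for 1 library of each medium, made with Cell Ranger 2.1.1 on the mm10 genome, per the submitters' processing notes; the labels name the 10x Chromium system. The handling of intronic reads was not given in the sources used here.

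S100a6-positive cells, gene lists and alternatives were chosen with earlier results of these data known. UMIs were summed over the cells of a group and divided by the group's total UMIs to give CPM. The log2 ratio is S100a6-positive over S100a6-zero cells, with the exact conditional binomial 95% interval, and a count under 3 UMIs entered at 3. Intervals of shares are exact Clopper-Pearson intervals. Intervals cover counting error only, since 1 library per medium gives no residual spread, and the depth of each library limits them. To compare shares of cells, each cell was thinned to 2000 UMIs. Clusters came from scanpy 1.11.5 and igraph 0.11.9 (Leiden at resolution 0.6, 2000 variable genes, 20 components, 15 neighbours) without S100a6. Scrublet marked doublets. The ratio calculation was tested on simulated data.

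Genes were named by rule. It took the 12 largest ratios in each direction and library and the 10 largest in both libraries, at 100 CPM or more and without mitochondrial, ribosomal protein and unnamed genes. It also took, per list, the most abundant gene and the 2 largest ratios at 20 CPM or more, and all S100, annexin and cell type marker genes. Ambp, Rbp4, Fgb, Foxa2, Lgals1, Actn1, Tmsb4x, Cd44, Ctgf, Cyr61, Fn1, Krt8, Sox4, Tff3, Cdkn2b, Mdm2, Ier3, Junb, Ier2, Zfp36, Cdh2 and Fkbp5 were named after their values were seen. Some genes that the rule takes are not reported here. Coordinates of genes are those of GENCODE M21 (GRCm38, the assembly behind mm10), and promoters are from RefSeq.

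The alternatives changed the cell filter, the S100a6 threshold, the depth and weight of cells, the scaling, doublets, the sex class of cells and the minimum level. Computation used scipy 1.17.1 for the intervals and matplotlib 3.10.9 for the plots, under Python 3.11.15.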

Additional observations from a re-analysis of the deposited data

Results flagged for a closer look

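For 5 genes the S100a6-positive cells stood above the S100a6-zero cells in induction medium and below them in expansion medium, each time by at least 2-fold. Whether the ratio differed between media was not tested, because each medium had 1 library. The log2 ratio of clusterin (Clu), a secreted chaperone, was 1.15 in induction and -1.81 in expansion medium. It had 4851 CPM in S100a6-positive and 2193 CPM in S100a6-zero induction cells, and 2087 CPM and 7318 CPM in expansion cells. Ly6d, a surface protein, had log2 ratios of 1.38 and -3.42, with 311 CPM and 120 CPM in induction cells and 10.1 CPM and 108 CPM in expansion cells, and its UMIs were in 18 of 51 and 5 of 19 S100a6-positive cells. Rgs4, a regulator of G protein signalling, had 3.29 and -1.81 from 33 UMIs in S100a6-positive induction cells and 12 in expansion cells. Gas6, the ligand of Axl, had 1.10 and -1.08 from 32 and 41 UMIs, and the integrin alpha V gene Itgav had 1.04 and -1.25.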

How the results depend on the processing

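Direction held for the summed hepatocyte transcripts under all alternatives, from -1.62 to -2.06 in induction medium (main value -1.82) and from -2.48 to -3.05 in expansion medium (main value -2.65). With counting intervals this narrow most settings moved the value past them. In induction and expansion medium it was -1.80 and -2.69 with cells of 2 or more S100a6 UMIs, -2.06 and -3.05 with 5 or more, -1.99 and -3.03 at matched depth, -1.76 and -2.71 after thinning, -1.78 and -2.72 with equal weight for every cell, -1.62 and -2.48 without mitochondrial and ribosomal protein genes in the total, -2.02 and -2.89 relative to the median gene, and -1.64 and -2.73 in Xist cells. In expansion medium it was -2.99 in Y-linked cells and -2.61 without the cell of most S100a6 UMIs. Without doublets it was -1.88 in induction medium, and without cells with both Xist and Y-linked UMIs, an alternative added after the data were seen as was the removal of 1 cell, it was -1.80 and -2.99.

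Counts depended more on the settings, with main values of 435 higher and 473 lower in induction medium and 294 and 320 in expansion medium. At a minimum of 20 CPM, which admits more genes, they were 850 and 857 in induction and 710 and 587 in expansion medium. Without mitochondrial and ribosomal protein genes in the total the higher counts were 856 and 788. In expansion medium the higher count was 175 relative to the median gene and 545 in Y-linked cells, where 5 cells were S100a6-positive. After thinning, which leaves 19 cells of 2000 UMIs, it was 672 and the lower count 144. Counts under 3 UMIs entered at 3 there, which lifts genes low in S100a6-positive cells and limits lower calls. The share of S100a6-positive cells was 6.99% and 5.12% at 1 or more UMI, 6.16% in Y-linked induction cells and 3.08% in Xist expansion cells. The cause of these differences was not tested.

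Of the values for named genes, 3195 stayed within their interval or spread, 674 moved and 1 reversed, which was Nr5a2 in expansion medium, at 0.60 after thinning (main value -1.46). Of the list medians 743 stayed, 133 moved and 2 reversed. In induction medium 2 of 19 lists with a median of at least 2-fold fell below it in some setting, and in expansion medium 10 of 17 did, in 30 values. After thinning, the expansion median was -0.65 for cholesterol synthesis (main value -1.29), -0.48 for immediate early genes (-1.17) and -0.62 for mucosal genes (-2.30). Relative to the median gene it was 0.77 for actin cytoskeleton genes (1.00), 0.79 for YAP and TEAD targets (1.02) and 0.93 for p53 targets (1.17). The induction median of keratins and junctions was 0.65 at 20 CPM (1.26). Mucosal genes in induction medium had -0.26 at 20 CPM (main value 1.38), and NRF2 targets in expansion medium had -0.26 in Xist cells (main value 1.01). No paired analysis was possible because each medium had 1 library.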
